A study of Rattus norvegicus with 15 samples.

Results

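Notch signalling was followed in cultured spermatogonial stem cells of the rat, which maintain sperm production, through 9 genes: the receptors Notch1, Notch2 and Notch3, the ligands Jag1, Jag2 and Dll1, the receptor-modifying glycosyltransferase gene Lfng, and the target genes Hes1 and Hey1. Members were all probe sets (groups of array probes for 1 transcript) whose single gene symbol in the platform annotation was one of these names, which gave 10 of the 31042 probe sets that are not array controls. Each gene had 1 probe set except Notch1, which had 2. GDNF (glial cell line-derived neurotrophic factor), which sustains self-renewal of these cells, had been present in the serum-free culture of every group for 1 month. Cultures kept with GDNF served as the control, others had GDNF withdrawn for 18 h, and 3 further sets had GDNF given back for 2, 4 or 8 h after an 18 h withdrawal. Each of the 5 groups had 3 arrays, and the labels call the replicates independent cultures. The labels give no strain, age or genotype of the animals, and no culture left without GDNF for as long as the returned ones is analysed here.

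Notch receptors are activated by ligands presented on neighbouring cells: JAG and DLL proteins bind and pull on the receptor, ADAM proteases and gamma-secretase release its intracellular part, and this part joins the DNA-binding protein RBPJ in the nucleus to switch on genes of the HES and HEY families. HES and HEY proteins are basic helix-loop-helix repressors, of which the HES proteins recruit TLE co-repressors. Hes1 is known to be switched on by other growth factor signals as well. In the testis, Notch receptors and HES/HEY genes have been studied chiefly in Sertoli cells, which receive JAG1 from germ cells and lower their Gdnf expression in response.

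Of the 10 probe sets, 6 passed the low-value filter (an intensity of at least 16 on at least 3 arrays) and were tested: those of Hey1, Hes1, Jag1, Jag2 and Lfng and 1 of Notch1. The probe sets of Notch2, Notch3 and Dll1 and the second one of Notch1 were under 16 on all 15 arrays. Over the arrays Notch2 lay between 5.36 and 5.50, Notch3 between 3.33 and 3.41 and Dll1 between 4.87 and 7.13, the highest Dll1 value being that of control replicate 1. These values are at the low end of the deposited scale, so no change is given for these 3 genes. Values are the authors' linear intensities, a relative measure of transcript level that is not compared between probe sets. Across the series 15856 probe sets were tested with limma on the log2 scale, with the Benjamini-Hochberg adjusted p over all of them held against a threshold of 0.05, and the 15 arrays had median intensities of 16.6 to 17.1. The number of arrays limits the precision.

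The labelled cell type was checked against marker genes. Of 11 germ cell markers 7 had a probe set with 1 symbol and 6 passed the filter, among them Epcam, Uchl1, Ret and Sall4. Their summed intensity with Lin28a, which was under the filter, was 21210 to 22840 in the control and 17300 to 18740 after withdrawal, so all withdrawal arrays were below all control arrays. The gap was mostly Epcam (mean 10990 to 7587). Mean Ret, Etv5 and Id4 were lower after withdrawal too (4301 to 3779, 765.9 to 514.3 and 172.8 to 110.5). Uchl1 was level (5403 to 5409) and Sall4 higher after withdrawal (489.8 to 644). The summed intensity of these markers was 17040 to 17940, 18800 to 19470 and 19710 to 20450 at 2, 4 and 8 h. Their part in the results was not tested. Ddx4, Dazl, Zbtb16 and Nanos2 were not analysed here. Of 16 mesenchymal markers 15 had a probe set and 11 passed, including Vim, Col1a1 and Pdgfra. Control arrays had summed mesenchymal intensities of 5038 to 6593 and withdrawal arrays 3637 to 5890, while the times of return had 3211 to 3599 (2 h), 3598 to 4743 (4 h) and 5214 to 6246 (8 h). Mean Vim, Fbn1, Pdgfra, Dcn, Sparc and Loxl1 were lower after withdrawal than in the control (Vim 1481 to 1288, Pdgfra 907 to 778). Mean Col1a1, Fn1, Col1a2, Col3a1 and Col5a1 were higher (Col1a1 622 to 722). The mean log2 level of the 11 tested markers was 8.43 in the control and 8.35 after withdrawal. Within groups, withdrawal replicate 1 and 4 h replicate 1 were the lowest arrays, with a mean log2 level of the tested markers of 7.88 against 8.54 and 8.62, and of 7.80 against 8.17 and 8.27. Of 9 Sertoli markers 7 had a probe set and 4 passed (Clu, Cldn11, Gata1 and Wt1), with Amh, Gata4 and Inha under the filter. Most of the Sertoli sum was Clu. That sum was 3346 to 3536 in the control and 3752 to 4020 after withdrawal. At 2 h it was 3647 to 3762, at 4 h 3426 to 3634 and at 8 h 3880 to 4000, and its part in the results was not tested. Mean Clu and Cldn11 were higher after withdrawal than in the control (3051 to 3470 and 275 to 307), whereas mean Gata1 and Wt1 were lower (52.8 to 40.8 and 20.6 to 16.4). All 5 immune and all 5 Leydig markers were under the filter. Of the endothelial markers 2 of 6 passed. Mean Kdr was 21.8 in the control and 7.66 after withdrawal, and 8.33, 8.76 and 11.5 at 2, 4 and 8 h. It was low after withdrawal as Jag1 and Lfng were, but its means outside the control were under 16. No size of change is therefore given for Kdr. Mean Pecam1 was 42.4 in the control and 48.3 to 51.9 in the other groups. The part of these endothelial markers in the results was not tested. Of the smooth muscle markers 1 of 5 passed.

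Hey1, a HEY-family repressor gene, was higher after GDNF withdrawal and lower again within 2 h of its return. Its intensity was 84.5, 83.0 and 83.3 in the 3 control cultures and 202, 164 and 194 after withdrawal. It was 74.2, 84.6 and 73.0 at 2 h, 70.9, 109 and 94.1 at 4 h and 119, 108 and 106 at 8 h. All 3 withdrawal arrays stood above the other 12. The mean rose 2.22-fold on withdrawal, from 83.6 ± 0.81 to 187 ± 20.4 (SD, n = 3 in each group), which is 1.15 ± 0.13 on the log2 scale (SE; adjusted p from limma = 1.96e-05). In bulk RNA, fewer cells of a type and less RNA per cell cannot be told apart.

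Against withdrawal Hey1 was 2.41-fold lower at 2 h, with a log2 change of -1.27 ± 0.13 (SE; adjusted p from limma = 9.64e-06). At 4 h it was 2.07-fold lower and at 8 h 1.68-fold lower (limma adjusted p = 2.84e-05 and 0.000724). The order of the group means was withdrawal, 8 h (111 ± 6.82), 4 h (91.5 ± 19.4), control and 2 h (77.3 ± 6.42). The 4 h arrays overlapped with those of the control and the control arrays with those at 2 h, pairs that were not tested. For 8 h against 4 h the log2 change was 0.30 (95% interval 0.019 to 0.58, limma adjusted p = 0.172), which passed without 4 h replicate 2 (0.44, limma adjusted p = 0.0444) and was 0.13 without 4 h replicate 1 (0.583). That of 4 h against 2 h was 0.22 (limma adjusted p = 0.288), and it passed without 4 h replicate 1 (0.40, limma adjusted p = 0.0356) and was 0.083 without 4 h replicate 2 (0.732). From 2 h to 8 h Hey1 climbed 1.44-fold (log2 change 0.52 ± 0.13, limma adjusted p = 0.0087), and the arrays of these times did not overlap. That call was lost with the mean of the mesenchymal markers as a covariate (log2 change 0.46, limma adjusted p = 0.141). At 8 h all 3 arrays stood above the control arrays, though the log2 change of 0.41 was not past the threshold (limma adjusted p = 0.0571). It passed with the control and 8 h arrays alone in the model (limma adjusted p = 0.0261), and when either 4 h replicate 1 or 4 h replicate 2, which enter only the shared estimate of spread, was left out (0.0157 and 0.0292). Over all fits without 1 array the adjusted p ran from 0.0157 to 0.168.

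Hes1, a repressor gene of the HES family, showed another time course. Its intensity was 701, 823 and 780 in the control and 725, 781 and 736 after withdrawal. It was 1786, 1743 and 1823 at 2 h, 1512, 1674 and 1782 at 4 h, and 925, 854 and 829 at 8 h. The control and withdrawal arrays overlapped, and every 2 h and 4 h array stood above all arrays of the other groups. On withdrawal the log2 change was -0.04, with a 95% interval of -0.18 to 0.11 (limma adjusted p = 0.751), so a change as large as that of Hey1 lay outside the interval.

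On GDNF return Hes1 rose 2.39-fold in 2 h, from 747 ± 29.98 to 1784 ± 39.7 (SD, n = 3), which is 1.26 ± 0.07 on the log2 scale (SE; adjusted p from limma = 1.01e-08). At 4 h it was 2.21-fold over withdrawal (limma adjusted p = 1.09e-08), and 4 h and 2 h did not differ past the threshold (log2 change -0.11, 95% interval -0.25 to 0.03). From 4 h to 8 h it fell 1.90-fold, a log2 change of -0.93 ± 0.07 (limma adjusted p = 7.55e-07). At 8 h it was still 1.16-fold over withdrawal (limma adjusted p = 0.028), but the adjusted p was 0.0887 or 0.0712 when withdrawal replicate 1 or 3 was left out, 0.117 or 0.0548 when 8 h replicate 1 or 2 was, 0.0652 with no filter on low values and 0.0581 with median centring. Against the control the 8 h level differed by a log2 change of 0.18, not past the threshold (limma adjusted p = 0.0974). Hes1 and Hey1 therefore moved in opposite directions at 2 h, while only Hey1 of these 2 target genes passed the threshold on withdrawal.

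**Figure D1:**
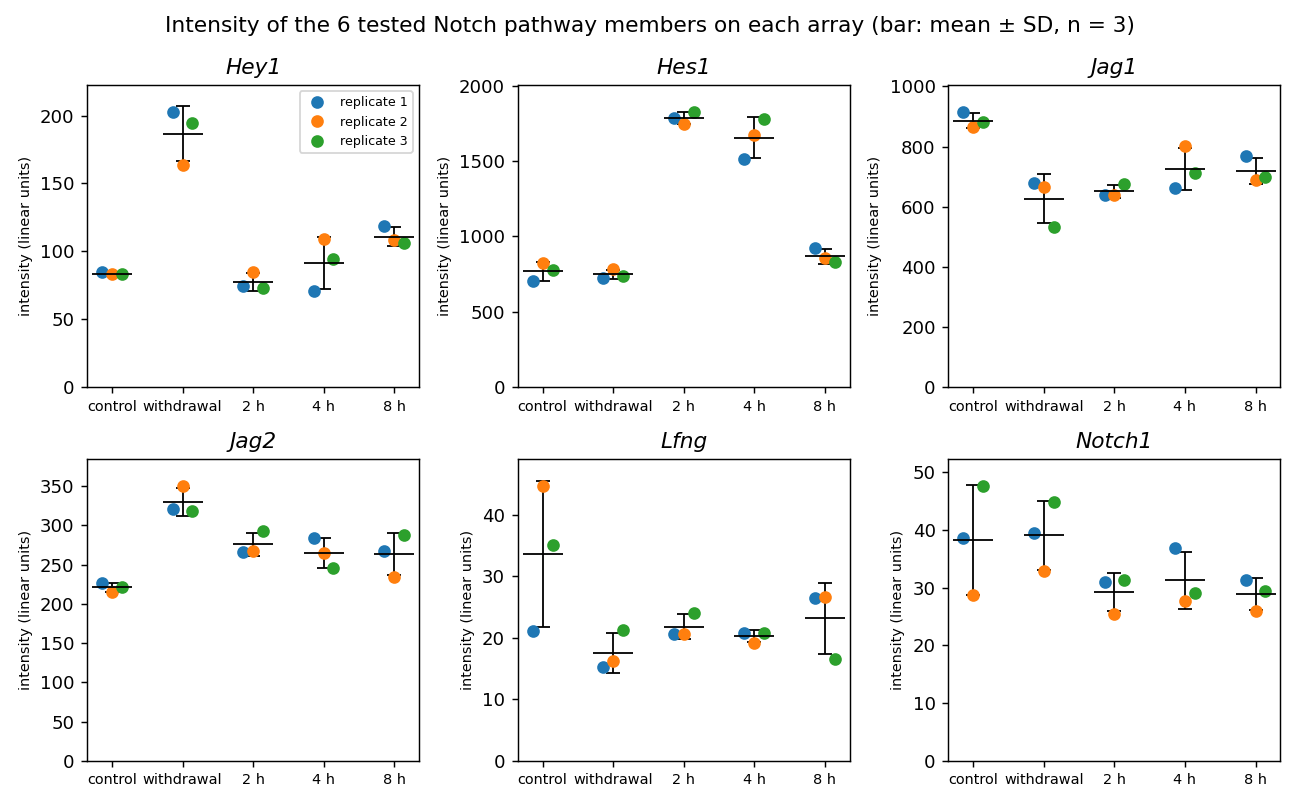
Intensity on the linear scale (y axis, from 0) of the 6 tested members on each array, by group (x axis), with replicate numbers in colour and bars for the mean and SD of 3 arrays. Hey1 is highest in the withdrawal group (164 to 202), and Hes1 is high at 2 h and 4 h (1512 to 1823).

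The promoter window of Hes1 (250 bases before to 50 after the start site) is shown because this gene had the largest rise on GDNF return among the members. It is chr11:84212996-84213295 of the rat assembly GRCr8, minus strand, from RefSeq, printed 5′ to 3′ in lower case with matches to RBPJ-type motifs in capitals. The motifs searched on both strands were TGGGAA, the core of the RBPJ site, and GTGNGAA, a longer form whose matches can contain the core. The window of Lfng (chr12:19152869-19153168, minus strand) is given beside it because Lfng is the other tested member with matches to both.
Hes1: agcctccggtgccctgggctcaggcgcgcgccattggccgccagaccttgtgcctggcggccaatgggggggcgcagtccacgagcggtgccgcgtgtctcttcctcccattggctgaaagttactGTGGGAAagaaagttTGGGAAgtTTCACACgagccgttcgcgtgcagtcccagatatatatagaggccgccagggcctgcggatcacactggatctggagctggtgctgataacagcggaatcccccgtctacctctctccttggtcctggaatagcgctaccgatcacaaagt
Lfng: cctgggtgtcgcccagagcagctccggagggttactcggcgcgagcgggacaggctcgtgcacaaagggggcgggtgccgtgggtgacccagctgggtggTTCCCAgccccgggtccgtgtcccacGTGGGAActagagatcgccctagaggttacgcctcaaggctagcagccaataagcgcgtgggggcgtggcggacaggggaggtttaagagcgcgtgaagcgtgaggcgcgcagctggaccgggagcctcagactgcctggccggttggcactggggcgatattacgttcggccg
The Hes1 window held 2 matches to TGGGAA, which begin 123 and 109 bases before the start site, and 2 to GTGNGAA, of which the one on the printed strand overlaps the first core match and the other lies on the opposite strand 101 bases before the start site. Of 33469 windows of 300 bases, 25.7% held TGGGAA at least once and 3.85% had 2 or more matches. GTGNGAA was found in 14.5%, and 1.23% had 2 or more. The Lfng window held 2 core matches, 1 on each strand, and 1 longer match that overlaps the core match on the printed strand. Windows were at hand for 8 of the 9 members, with 2 start sites for Jag2, and none for Hey1. Those of Jag1, Jag2, Notch1 and Notch2 had no match to either motif. Of the members under the filter, Dll1 had 2 core matches and 1 longer match, and Notch3 had 1 core match. The N box CACNAG, a sequence bound by HES proteins, had 4 matches in the Hes1 window and was found in 43.1% of all windows. A match is a description of letters, and binding was not measured.

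The ligand genes Jag1 and Jag2 changed in opposite directions on withdrawal. Jag1, which encodes the transmembrane ligand Jagged-1, had an intensity of 913, 864 and 881 in the control and 679.9, 667 and 532 after withdrawal. It was 637, 639.6 and 677 at 2 h, 663, 802 and 713 at 4 h and 769, 688 and 697 at 8 h. All control arrays stood above all others. The fall on withdrawal was 1.42-fold, from 886 ± 25.3 to 626 ± 81.8 (SD, n = 3), which is -0.51 ± 0.09 on the log2 scale (SE; adjusted p from limma = 0.000718).

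Jag1 did not pass the threshold against withdrawal at any time of return: the log2 change was 0.06 at 2 h, 0.22 at 4 h and 0.20 at 8 h (limma adjusted p = 0.623, 0.0699 and 0.101). The change at 4 h passed without withdrawal replicate 1 or 4 h replicate 1 (limma adjusted p = 0.0349 and 0.0372), and over all fits without 1 array it was 0.10 to 0.28. After 8 h of GDNF Jag1 was still 1.24-fold below the control (718 ± 44.2; log2 change -0.30 ± 0.09, limma adjusted p = 0.0316). It did not hold when any 1 control array was left out (limma adjusted p from 0.0528 to 0.0943), when 8 h replicate 2 or 3 was (0.107 and 0.0989), with no filter on low values (0.0802) or with no intensity trend (0.0511).

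Jag2, which encodes the related ligand Jagged-2, had an intensity of 227, 215 and 222 in the control and 321, 350.0 and 318 after withdrawal. It was 266, 268 and 293 at 2 h, 284, 265 and 246 at 4 h and 268, 234 and 288 at 8 h. The withdrawal arrays were the highest and the control arrays the lowest, with no overlap with the times of return. The rise on withdrawal was 1.49-fold, from 221 ± 5.77 to 330 ± 17.6 (SD, n = 3), which is 0.57 ± 0.08 on the log2 scale (SE; adjusted p from limma = 0.000139).

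On return Jag2 fell part of the way. Against withdrawal it was 1.20-fold lower at 2 h, 1.25-fold lower at 4 h and 1.26-fold lower at 8 h (limma adjusted p = 0.0288, 0.00815 and 0.00805). At 2 h the call did not hold when withdrawal replicate 2, 2 h replicate 1 or 2 h replicate 2 was left out (limma adjusted p = 0.116, 0.0943 and 0.0888), with no filter on low values (0.0547) or with the mesenchymal covariate (0.0546). The 8 h mean of 264 ± 27.3 was 1.19-fold over the control, with a log2 change of 0.25 that was not past the threshold (limma adjusted p = 0.0598). It passed without 8 h replicate 2 (limma adjusted p = 0.02), the lowest Jag2 array of that group, and with quantile normalization (0.0423), and over all fits without 1 array the change was 0.18 to 0.33.

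Lfng, the Golgi enzyme gene whose product adds a sugar to Notch and so shifts its response to ligands, was close to the low-value filter. Its intensity was 21.1, 44.7 and 35.1 in the control, 15.2, 16.2 and 21.3 after withdrawal, 20.7, 20.6 and 24.1 at 2 h, 20.9, 19.1 and 20.8 at 4 h and 26.4, 26.7 and 16.6 at 8 h. The control and withdrawal arrays overlapped, the lowest control array being replicate 1. The mean fell 1.85-fold on withdrawal, from 33.6 ± 11.9 to 17.6 ± 3.28 (SD, n = 3), which is -0.88 ± 0.23 on the log2 scale (SE; adjusted p from limma = 0.0142). That call was lost without control replicate 2 or withdrawal replicate 1 or 2 (limma adjusted p = 0.0722, 0.0559 and 0.0513) and with only the groups compared in the fit (0.0708). No time of return passed the threshold against withdrawal, with log2 changes of 0.32, 0.22 and 0.38 at 2, 4 and 8 h (limma adjusted p = 0.334, 0.521 and 0.257). At 8 h Lfng was at a log2 change of -0.50 from the control (limma adjusted p = 0.189), which passed without control replicate 1 (-0.80, limma adjusted p = 0.0218). Over all fits that left out 1 array it ran from -0.80 to -0.26 (limma adjusted p from 0.0218 to 0.55), the smallest being without control replicate 2.

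Among the receptors Notch1 alone had a tested probe set. Its intensity was 38.5, 28.6 and 47.5 in the control, 39.5, 32.9 and 44.8 after withdrawal, 31.0, 25.4 and 31.3 at 2 h, 36.9, 27.7 and 29.1 at 4 h and 31.3, 25.9 and 29.4 at 8 h. The 2 h and 8 h arrays all stood below the withdrawal arrays, and those of the control overlapped with every group. No comparison passed the threshold: the log2 change was 0.05 on withdrawal, with a 95% interval of -0.32 to 0.42, and -0.41, -0.32 and -0.43 at 2, 4 and 8 h against withdrawal (limma adjusted p = 0.0961, 0.181 and 0.0882). With the mesenchymal covariate the change at 2 h was -0.66 and passed (limma adjusted p = 0.0387), and without control replicate 2 those at 8 h against withdrawal and against the control passed (limma adjusted p = 0.0464 and 0.0397). Over all fits without 1 array these adjusted p ran up to 0.254 and 0.525. The second Notch1 probe set, under the filter on all arrays, had 11.5, 10.8 and 10.6 after withdrawal and 8.19 to 9.88 on the other 12 arrays.

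**Figure D2:**
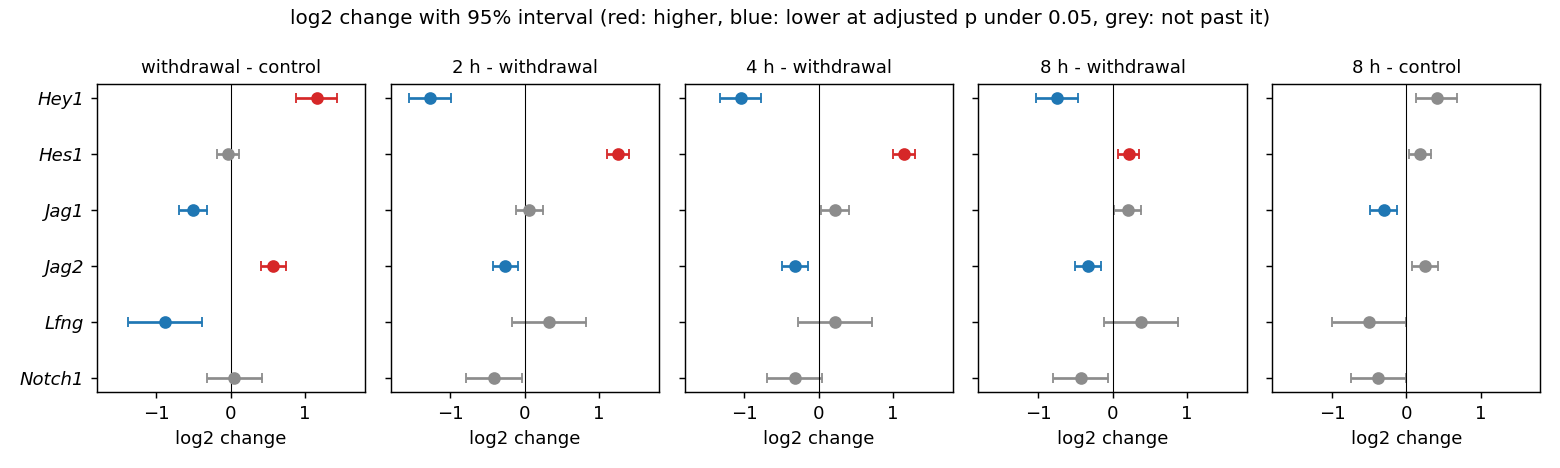
log2 change (x axis) with its 95% interval for the 6 tested members (y axis) in 5 comparisons, red where higher and blue where lower past the threshold, grey where not past it. Jag1 and Jag2 lie on opposite sides of 0 after withdrawal (-0.51 and 0.57), and Hey1 and Hes1 at 2 h (-1.27 and 1.26).

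Counted together, 4 of the 6 tested probe sets passed the threshold on withdrawal, 2 higher and 2 lower, beside 21.1% of all tested probe sets. At 2 h 3 passed against withdrawal, 1 higher and 2 lower (26.1% of all), and the counts were the same at 4 h (30.6% of all) and 8 h (25% of all). With 8 h against the control 1 passed (12.3% of all). Between times of return, none passed by limma for 4 h against 2 h (13.7% of all; 0 at an unadjusted p under 0.05 as well), 1 for 8 h against 4 h (9.66% of all) and 2 for 8 h against 2 h (26.2% of all). The F test over the 5 groups called 49.6% of all tested probe sets, and 5 of the 6 here: Hes1 (limma adjusted p = 1.38e-09), Hey1 (1.4e-05), Jag2 (0.000732), Jag1 (0.00184) and Lfng (0.0475), with Notch1 at 0.113. The median size of the log2 change over the 6 was 0.54 on withdrawal and 0.37, 0.32 and 0.36 at 2, 4 and 8 h, beside 0.12, 0.14, 0.15 and 0.13 over all tested probe sets. The 4 member probe sets under the filter are in none of these counts. Because the members were chosen with earlier results of these data known, these comparisons with all probe sets are descriptions and carry no test.

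The mean mesenchymal marker level was lowest at 2 h, the time of the highest Hes1 level. Within groups the log2 slope of a member on the mean of the 11 tested markers was 0.21 ± 0.09 for Hes1, 0.08 ± 0.21 for Hey1, -0.10 ± 0.13 for Jag1, -0.09 ± 0.13 for Jag2, 0.65 ± 0.32 for Lfng and -0.45 ± 0.25 for Notch1 (SE), none of them past the threshold in limma, where the adjusted p ran from 0.276 to 0.886. In the model with this covariate the 2 h change against withdrawal was 1.37 for Hes1 and -1.22 for Hey1, and the changes on withdrawal were 1.16 for Hey1, -0.52 for Jag1 and 0.57 for Jag2. These 5 changes were about as large with the covariate as without it. Others moved more: at 2 h against withdrawal Lfng went from 0.32 to 0.69 (limma adjusted p = 0.091) and Notch1 from -0.41 to -0.66 (0.0387), and the calls of Jag2 at 2 h against withdrawal and of Hey1 at 8 h against 2 h were lost. The marker level itself varied with group, from 7.66 to 7.92 at 2 h and from 7.88 to 8.62 after withdrawal. The part of mesenchymal cells in the changes was not tested.

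The transcripts most like Hey1 over the 15 arrays, by Pearson's r of log2 intensity among 8958 other named genes, were Trmt1l (r = 0.918), Bola1 (0.908), Zfp90 (0.892), Fhip2a (0.877) and Gatb (0.874). Of these Zfp90, a zinc-finger gene, had a control mean of 304, a withdrawal mean of 571, and means of 241, 225 and 309.8 at 2, 4 and 8 h. Those most like Hes1 were Sertad1 (r = 0.968), Junb (0.961), Egr2 (0.948), Selenok (0.947) and Vcl (0.944). Junb, an AP-1 subunit gene, had means of 253, 173, 753, 646 and 309.6 in the same order. Egr2, a zinc-finger early response gene, had 16.2, 13.2, 330.4, 87.8 and 18.9. The withdrawal mean of Egr2 was under the filter value of 16, so the size of its rise rests on low values. Among the times of return, the means of Junb, Egr2 and Hes1 were all closest to their control means at 8 h. These correlations describe arrays that share the 5 group means, so they carry no test.

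**Figure D3:**
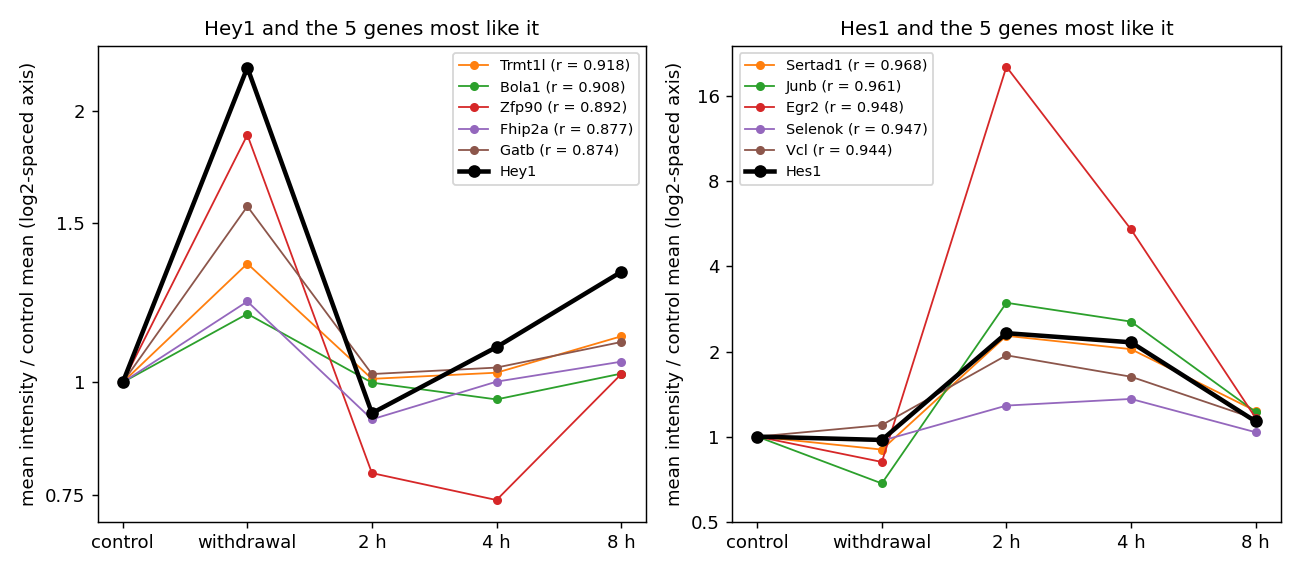
Group means divided by the control mean (y axis, log2-spaced) over the 5 groups (x axis) for Hey1 (left) and Hes1 (right), in black, with the 5 genes of highest r over 15 arrays in colour. The Hey1 set peaks after withdrawal and the Hes1 set at 2 h or 4 h. Egr2 goes from a mean intensity of 13.2, under the filter value of 16, to 330.4.

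Beyond the members, a list of 52 other Notch pathway genes had 41 with a probe set of 1 symbol and 26 that were tested. After withdrawal 3 of the 26 were higher and 4 lower, beside 11.4% and 9.67% of all tested probe sets, with a median log2 change of 0.02 against 0.01 over all. At 2 h 2 were higher and 3 lower (11.9% and 14.2% of all), at 4 h 6 and 5 (14.6% and 16% of all), and at 8 h 4 and 2 (9.62% and 15.4% of all). Against the control at 8 h 1 was higher and 1 lower, beside 12.3% of all tested probe sets past the threshold in either direction. Of 5 other ligand genes 4 had a probe set and 1, Dlk1, was tested. The probe set of the receptor gene Notch4 was under the filter, and of 7 other HES/HEY genes 6 had a probe set and 1, Hes6, was tested.

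Hes6, a HES-family gene whose product is known to oppose HES1, had the largest change of the list. Its intensity was 164, 161 and 195 in the control, 96.3, 126 and 146 after withdrawal, 248, 261 and 290 at 2 h, 148, 191 and 175 at 4 h and 172, 178 and 179 at 8 h. All 2 h arrays stood above the rest and all withdrawal arrays below. It rose 2.19-fold in 2 h (log2 change 1.13 ± 0.13 SE, limma adjusted p = 3.6e-05) and fell 1.56-fold from 2 h to 4 h (limma adjusted p = 0.00513). At 8 h it was 1.46-fold over withdrawal (limma adjusted p = 0.00823). Its fall on withdrawal, named after its value was seen, was 1.43-fold (log2 change -0.51, limma adjusted p = 0.0136), which did not hold when control replicate 3 or withdrawal replicate 1 was left out (0.0614 and 0.062) or with only the groups compared (0.0761). Hes6 at 2 h thus rose beside Hes1 and opposite to Hey1.

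Of 8 tested genes of the nuclear complex and its co-repressors, 2 were higher and 1 lower on withdrawal (11.4% and 9.67% of all tested probe sets). Against withdrawal 1 was higher and 3 lower at 2 h (11.9% and 14.2% of all). At 4 h 4 were higher and 2 lower (14.6% and 16% of all), and at 8 h 2 and 1 (9.62% and 15.4% of all). The others did not pass, and Maml1, a co-activator gene, passed in no comparison. Rbpj, the DNA-binding partner of the Notch intracellular part, had 993, 1218 and 1087 in the control, 1038, 983 and 1066 after withdrawal, and 1247, 1257 and 1330.0 at 2 h. It rose 1.24-fold at 2 h, 1.26-fold at 4 h and 1.19-fold at 8 h against withdrawal (limma adjusted p = 0.00264, 0.00124 and 0.00902). Its 2 other probe sets rose by 0.21 and 0.26 on the log2 scale at 2 h (limma adjusted p = 0.0277 and 0.00409), and of them 1 passed at 4 h and 8 h (0.0118 and 0.0026) and 1 did not (0.0521 and 0.0769). Tle1, a Groucho-family co-repressor gene, was at 430, 430 and 416 in the control, 514, 585 and 508 after withdrawal and 439, 410.3 and 444 at 2 h. It rose 1.26-fold on withdrawal and was 1.24-fold, 1.29-fold and 1.24-fold lower at 2, 4 and 8 h (limma adjusted p = 0.00214, 0.00296, 0.000618 and 0.00298). The related Tle3 was 1.25-fold higher at 4 h than after withdrawal (limma adjusted p = 0.000139) and fell 1.28-fold from 4 h to 8 h (0.000241), as Tle4 did by 1.22-fold (0.0032), with the other Tle4 probe set at a log2 change of -0.18 (0.176).

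Tle5, a short TLE-related gene, was 1.28-fold lower at 2 h (limma adjusted p = 0.0137), a call lost without withdrawal replicate 3 or 2 h replicate 1 (0.0628 and 0.056) and with the mesenchymal covariate (0.216). Kat2b, an acetyltransferase gene, fell 1.37-fold on withdrawal and was 1.30-fold over withdrawal at 8 h (limma adjusted p = 0.00105 and 0.00336). Its other probe set was at log2 changes of -0.10 and 0.01, not past the threshold (limma adjusted p = 0.634 and 0.969). Spen, a large co-repressor gene, rose 1.51-fold from 2 h to 4 h and 1.27-fold from 2 h to 8 h (limma adjusted p = 0.00018 and 0.00499), with its other probe set at 0.45 and 0.17 on the log2 scale (0.0315 and 0.382). At 8 h it was 1.26-fold over the control (limma adjusted p = 0.0134), a call lost without control replicate 2 or 8 h replicate 3 (0.0552 and 0.0616).

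Among genes that act on the receptor itself, Poglut1, a glucosyltransferase gene needed for Notch folding, fell 1.19-fold on withdrawal (limma adjusted p = 0.000864). It rose 1.15-fold from 4 h to 8 h and 1.16-fold from 2 h to 8 h (limma adjusted p = 0.00908 and 0.00255). Adam10, the protease gene for ligand-induced cleavage, fell 1.25-fold on withdrawal (limma adjusted p = 0.012), a call lost without control replicate 2 (0.0515), and its other probe set was at a log2 change of -0.19 (0.285). At 4 h, a comparison named after its value was seen, Adam10 was 1.285-fold below withdrawal (limma adjusted p = 0.00429; other probe set -0.40, 0.0153). At 8 h it was 1.28-fold below the control (limma adjusted p = 0.0106; other probe set -0.17, 0.366). Its rise of 1.25-fold from 4 h to 8 h (limma adjusted p = 0.0228; other probe set 0.41, 0.0345) was lost without 4 h replicate 1 (0.0847) or any 1 of the 3 arrays of the 8 h group (0.0507 to 0.0862), with the mesenchymal covariate (0.174), with only the groups compared (0.105) and without the low-value filter (0.0578). Furin, the convertase gene for receptor maturation, was 1.28-fold higher at 8 h than at 2 h (limma adjusted p = 0.00743), which did not hold with the covariate (0.184).

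Numb, an inhibitor of Notch signalling, was 1.15-fold over withdrawal at 4 h and rose 1.14-fold from 2 h to 4 h (limma adjusted p = 0.00161 and 0.00539). Its other probe set was at 0.31 and 0.11 on the log2 scale in these comparisons (limma adjusted p = 0.00723 and 0.396). That other probe set also passed on withdrawal (log2 change -0.30, limma adjusted p = 0.0129) and at 8 h against withdrawal (0.25, 0.0259). The first Numb probe set did not pass in either (limma adjusted p = 0.657 and 0.402). No tested gene of glycosylation, cleavage or inhibition changed as much against withdrawal as Hey1, Hes1 or Hes6 did at 2 h.

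**Figure D4:**
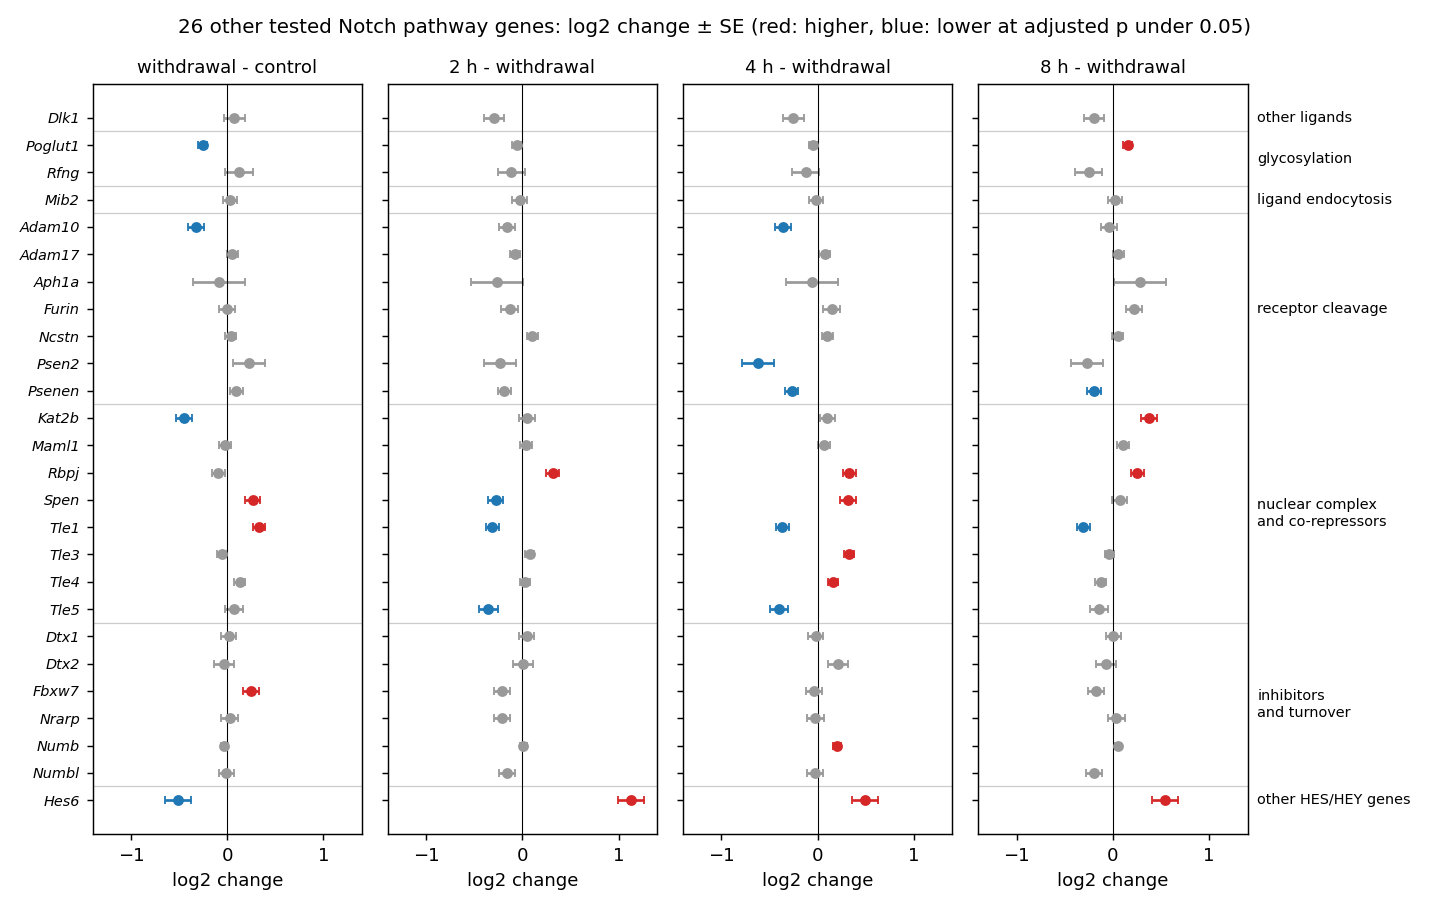
log2 change ± SE (x axis) of 26 other tested Notch pathway genes (y axis), grouped by role, in 4 comparisons, red where higher and blue where lower past the threshold. Hes6 at 2 h has the largest change (1.13), and Rbpj is red at all 3 times of return.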

How the data were processed

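The deposited table holds 1 linear intensity per probe set and array for 31099 probe sets on 15 single-colour arrays; the tools named in the submitters' processing notes are GCRMA and Partek 6.3, with no role or order, and the linear scale of the values was inferred from their range. GCRMA in general models background from probe sequence, so low intensities depend on it. No further normalization was done. Intensities were taken to log2, 57 control probe sets were left out, and 15856 with a log2 value of 4 or more on 3 or more arrays were tested. Symbols came from the platform annotation, updated by gene identifier (20764 of 20832 matched) through RefSeq names of GRCr8.

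Comparisons used limma 3.58.1 under R 4.3.3 (lmFit and eBayes, the latter with an intensity trend) on group means, and the 15 arrays shared 1 spread. P-values are two-sided, adjusted by Benjamini-Hochberg within each of 8 comparisons, threshold 0.05. The fit was tested on simulated data. For a pathway gene with several tested probe sets the one of highest mean was used, and in each comparison up to 4 past the threshold were named by smallest adjusted p. The members and lists were chosen with earlier results of these data known. Settings tried were other filters, a floor, 2 normalizations, no trend, fewer groups, a replicate block, a mesenchymal covariate and arrays left out.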

Additional observations from a re-analysis of the deposited data

Results flagged for a closer look

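The second Notch1 probe set was under the low-value filter on all 15 arrays and so in no comparison of the main fit. It had a mean intensity of 10.99 after withdrawal against 9.14 in the control. Its lowest withdrawal array (10.6) stood above the highest of the other 12 (9.88). In the fit without a filter it passed the threshold on withdrawal (limma adjusted p = 0.0246). There it also passed at 2, 4 and 8 h against withdrawal (limma adjusted p = 0.00335, 0.0012 and 0.00727). These low values give no usable size of change, and the calls from them are given only as a description. The tested Notch1 probe set was at a log2 change of 0.05 on withdrawal.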

How the results depend on the processing

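Of 895 combinations of a member's change and a setting, 848 kept the direction and the side of the threshold, 24 lost a call, 19 gained one and 4 changed sign. In many of these the log2 change could not move. The array left out was in neither compared group, or the setting altered only the filter or the estimate of spread. The direction was fixed there. Comparisons between times of return entered only for Hey1 and Hes1. The sign changes came from leaving out single arrays and concern changes not past the threshold: over these fits the log2 change on withdrawal was -0.10 to 0.015 for Hes1 and -0.14 to 0.22 for Notch1, and that of Jag1 at 2 h was -0.049 to 0.13. Member calls at 8 h against the control numbered 0 without the filter and 0 without the intensity trend, and 2 with quantile normalization, with only the groups compared or without 3 arrays together (replicate 1 of control, withdrawal and 4 h, chosen after the data were seen), against 1; leaving out single arrays gave 0 to 2. For 4 h against 2 h they numbered 1 without the 3 arrays and 0 to 1 over single arrays, for 8 h against 4 h 1 to 2, and for 8 h against 2 h 1 with the mesenchymal covariate. Over all settings member calls numbered 3 to 4 on withdrawal. Against withdrawal they numbered 2 to 4 at 2 h, 3 to 4 at 4 h and 2 to 4 at 8 h. Over all tested probe sets, only the groups compared gave 2166 calls on withdrawal (3342 in the model of all groups), 1241 for 8 h against the control (1953) and 892 for 8 h against 4 h (1532). The covariate gave 2040 for 8 h against 2 h (4157) and 879 for 8 h against 4 h, for which the 3 arrays left out gave 1001 and single arrays 924 to 1655. With the replicate block 4 member probe sets were called on withdrawal and 4 each at 2 h and 8 h, Notch1 being the added one (limma adjusted p = 0.0249 and 0.0213), and no other member call changed. The labels do not state that replicate numbers pair the cultures. The correlation of deviations from group means passed 0.1 in 8 of 30 same-numbered pairs (from -0.138 to 0.389, median 0.040). The highest was that of withdrawal replicate 1 with 4 h replicate 1, so structure shared by some same-numbered arrays is not excluded. No scaling moved the median of all changes by over 0.1, and Lfng was not tested with a filter at log2 5. The cause of the changes between settings was not tested. Members under 16 on all arrays have no usable change, and 3 arrays per group limit the precision.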
